A study of Mus musculus with 3 samples.

Results

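SR proteins, hnRNPs and the kinases that phosphorylate SR proteins were examined in RNA bound to chromatin of mouse macrophages. A gene belonged to the set if its symbol was Srsf with a number or began with Hnrnp, or if it was Tra2a, Tra2b, Clk1, Clk2, Clk3, Clk4, Srpk1, Srpk2, Rbm39, Rsrp1, Luc7l, Luc7l2, Luc7l3, Son, Srrm1 or Srrm2, and if it had a protein-coding transcript. This gave 47 of 55536 annotated genes, all among the 22028 protein-coding ones, namely 11 SR proteins, 10 SR-related proteins, 20 hnRNPs and 6 kinases. The rule used names only, and no measured value. The single group held 3 libraries, numbered 1, 2 and 3 by the submitters. In each, macrophages grown from C57BL/6J bone marrow had received Lipid A (the membrane anchor of bacterial lipopolysaccharide, recognised by Toll-like receptor 4) at 100 ng/ml for 12 h. A washout of 12 h followed, and then Lipid A at 100 ng/ml for 40 min, before total RNA of the chromatin fraction was depleted of ribosomal RNA and sequenced. Age and sex were not collected, and the labels name the same strain-level donor for every library, so any spread is one among these samples and may be technical. With 1 group there is no contrast, and levels, isoform shares and their spread are described.

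SR proteins carry domains rich in arginine and serine and bind exonic enhancers, where they help the spliceosome to define exons. hnRNPs coat nascent transcripts and often have the opposite effect on the same exons, while the Clk and Srpk kinases set the phosphorylation, and with it the location and activity, of SR proteins. Many of these genes are known to limit their own expression through unproductive isoforms, either a cassette exon with an early stop codon that sends the mRNA to nonsense-mediated decay or an intron left in a transcript that stays in the nucleus.

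Replicates 1, 2 and 3 were made from 1 µg, 250 ng and 500 ng of RNA and held 13802716, 17187524 and 16502809 expected counts over the annotated genes. The 47 genes took 222463, 260640 and 244518 of these counts. All 8 macrophage markers examined (Spi1, Adgre1, Mertk, Fcgr1, Cd68, Csf1r, Itgam and Lyz2) were detected, with a summed level of 990 to 1146 TPM (a level per transcript length and library total). None of 5 neutrophil, 3 T cell, 3 B cell and 3 erythroid markers reached a mean of 10 counts, and no such list summed to over 0.47 TPM. Of 4 fibroblast markers 2 were detected, Col1a1 and Col1a2, and that list summed to 0.02 to 0.96 TPM. Small RNAs took 60.9%, 51.6% and 52.0% of all TPM, which sets the scale of every TPM value of the other genes.

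The decay isoforms of these genes turn on short stretches of sequence, and 8 stop-carrying cassette exons are shown here because their use is compared below. Each line gives an exon of a transcript annotated as a nonsense-mediated decay target, read 5′ to 3′ from the first base of the exon to the stop codon in its annotated reading frame. Capitals mark the stop codon. Sequences are from the GENCODE M21 transcripts, and positions of whole exons are on mm10.
Srsf3: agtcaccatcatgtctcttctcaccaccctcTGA
Srsf6: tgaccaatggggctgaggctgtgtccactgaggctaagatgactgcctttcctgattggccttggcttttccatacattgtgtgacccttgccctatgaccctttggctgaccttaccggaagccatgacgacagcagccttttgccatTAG
Srsf7: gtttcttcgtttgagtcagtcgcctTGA
Tra2a: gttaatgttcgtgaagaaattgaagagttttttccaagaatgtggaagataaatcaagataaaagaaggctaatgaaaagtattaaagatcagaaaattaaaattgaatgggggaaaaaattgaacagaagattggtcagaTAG
Tra2b: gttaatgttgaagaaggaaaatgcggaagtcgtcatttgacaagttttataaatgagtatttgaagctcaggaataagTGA
Hnrnpl: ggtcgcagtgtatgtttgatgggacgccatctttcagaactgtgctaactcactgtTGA
Hnrnpll: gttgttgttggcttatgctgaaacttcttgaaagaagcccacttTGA
Rbm39: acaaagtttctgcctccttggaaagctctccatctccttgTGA

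The exon of Srsf3 lies at chr17:29039454-29039909 on the plus strand, in intron 3 of the 5 introns of the principal coding transcript. That of Srsf6 lies at chr2:162932815-162933082 on the plus strand in intron 2 of 5, and that of Srsf7 at chr17:80204622-80205081 on the minus strand in intron 3 of 7. The exons of the paralogs Tra2a (chr6:49252803-49253108, minus strand) and Tra2b (chr16:22258986-22259261, minus strand) both lie in intron 1 and share their first 9 bases. The exon of Hnrnpl (chr7:28817335-28817404, plus strand) lies in intron 7 of 13 and that of its paralog Hnrnpll (chr17:80044940-80045022, minus strand) in intron 6 of 12. The exon of Rbm39 (chr2:156174097-156174168, minus strand) lies in intron 3 of 16. The stop codon ended after 34 of 456 exon bases in Srsf3 and after 28 of 460 in Srsf7, against 144 of 306 in Tra2a and 59 of 70 in Hnrnpl.

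Splicing factor genes were abundant in the chromatin fraction. Of the 47 genes, 46 were detected, which meant 10 or more counts on average, against 49.7% of all protein-coding genes, and 38 lay in the top decile of mean TPM, which holds 10% of all by definition. The top percent held 14 of them. The median level was 86.2 TPM over the genes, with 85.0, 87.2 and 97.4 in replicates 1, 2 and 3, and the median percentile was 96.7. Together they held 3.05% ± 0.0397 (SD, n = 3) of the TPM of protein-coding genes. The median was 280 TPM for the SR-related genes, 84.1 for the hnRNPs, 58.4 for the SR proteins and 58.2 for the kinases. The plot of levels by library shows each gene.

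**Figure D1:**
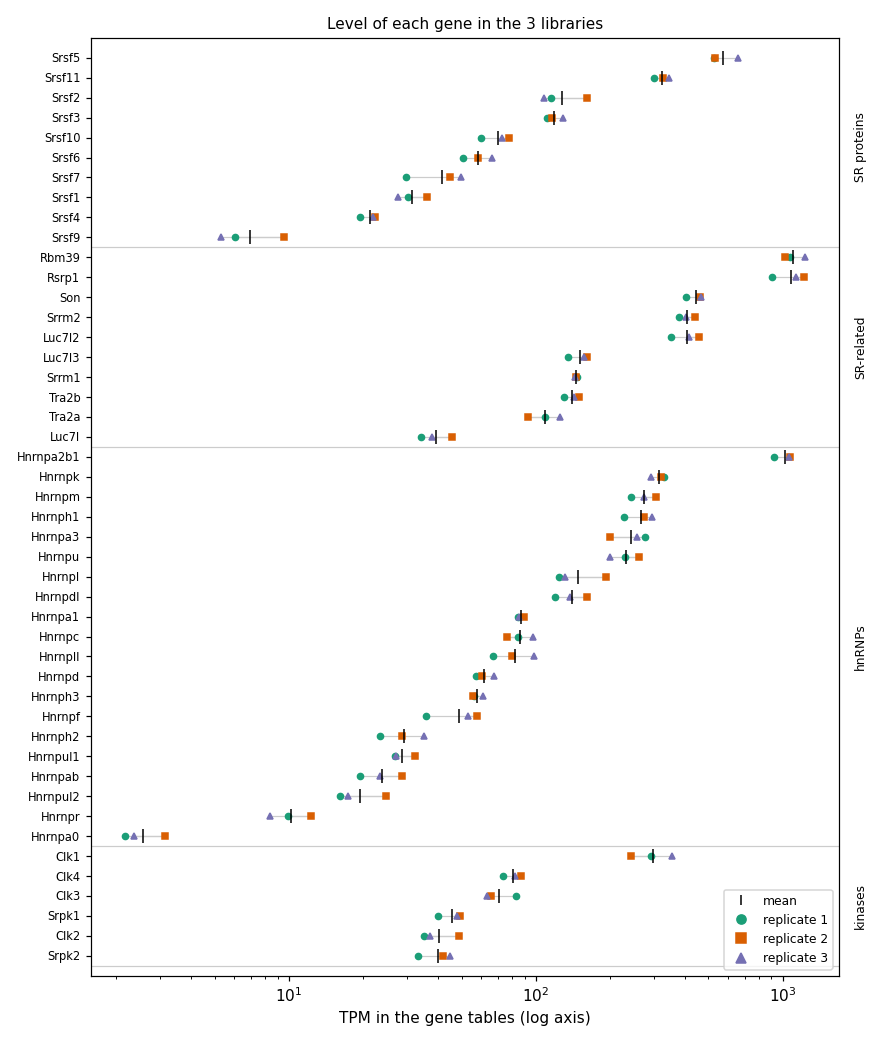
TPM in the gene tables (log axis) of the 46 detected genes in replicates 1, 2 and 3 (symbols), with the mean as a vertical tick and genes ordered by mean within each role. Rbm39, Rsrp1 and Hnrnpa2b1 lie highest in every library, and Hnrnpa0 is lowest with 2.56 TPM on average.

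Among SR proteins the most abundant were Srsf5, Srsf11 and Srsf2. Srsf5 (ENSMUSG00000021134.17, chromosome 12, 80945504 to 80950507), also known as SRp40, had 527, 530 and 659 TPM, a mean of 572 ± 74.9 (SD, n = 3). Srsf11, a nuclear factor with an SR domain, had 301, 328 and 346 TPM. Srsf2 (ENSMUSG00000034120.18, chromosome 11, 116849901 to 116853094), the speckle protein SC35, had 116, 161 and 108 TPM. Srsf5 was highest in replicate 3 and Srsf2 in replicate 2, so the order of the libraries was not shared. Srsf2 overlaps the coding genes Mettl23 and Mfsd11 on the other strand. Whether counting used strand is not given in the sources used here, so reads may not be told apart where the genes overlap.

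Srsf3, which couples splicing with export, had 111, 116 and 129 TPM, and Srsf7, its close relative, had 29.8, 44.9 and 49.9. Srsf1, the founding member of the family, had 30.3, 36.1 and 27.7 TPM. The remaining SR proteins ranged from 70.1 TPM on average for Srsf10, a factor that turns into a repressor when dephosphorylated, through Srsf6 and Srsf4 to 6.98 for Srsf9. Srsf12, a relative of Srsf10, had 0 counts in every library, which allows up to 0.217, 0.175 and 0.182 CPM (counts scaled by the library total). The table made directly from the reads listed Srsf12 at 1.34, 1.16 and 1.73 TPM, so its level depends on the quantification.

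The SR-related genes included the highest members of the whole set. Rbm39 (ENSMUSG00000027620.16, chromosome 2, 156147239 to 156180238), a splicing factor related to U2AF2, had 1066, 1018 and 1229 TPM, a mean of 1104 ± 111 (SD, n = 3). Rsrp1 (ENSMUSG00000037266.18, chromosome 4, 134923592 to 134927671), which encodes a protein rich in arginine and serine, had 904, 1215 and 1132 TPM. Son, a scaffold of nuclear speckles, had 407, 464 and 467 TPM, and overlaps Donson on the other strand. The ranges of Rbm39 and Rsrp1 overlapped, and both lay above every value of Son. In the table made from the reads Rbm39 had 1965 TPM on average, 1.78 times its value in the gene tables. The other speckle scaffold, Srrm2, had a mean of 409 TPM, and Luc7l2, a partner of the U1 particle, also had 409. Tra2b, which binds GAA-rich enhancers, had 130, 149 and 143 TPM. The others of this role lay between 39.3 TPM for Luc7l and 151 for Luc7l3.

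Among hnRNPs, Hnrnpa2b1 (ENSMUSG00000004980.16, chromosome 6, 51460932 to 51469894), a core component of hnRNP particles, had 921, 1071 and 1062 TPM. Hnrnpk, which binds C-rich RNA, had 330, 322 and 292 TPM, and overlaps Rmi1 on the other strand. Hnrnpm, a regulator of exon inclusion, had 244, 307 and 274 TPM. Hnrnpa2b1 lay above the other hnRNPs in every library. Hnrnpl, which binds CA repeats, had 124, 191 and 131 TPM, its relative Hnrnpll 67.3, 80.1 and 98.4, and Hnrnpdl 120, 160 and 138. Hnrnpl was high in replicate 2 alone, whereas Hnrnpll was highest in replicate 3. The other hnRNPs ranged from 266 TPM on average for Hnrnph1 to 10.2 for Hnrnpr and 2.56 for Hnrnpa0, the only one with a mean under 10 TPM.

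All 6 kinases were detected. Clk1 (ENSMUSG00000026034.17, chromosome 1, 58410189 to 58424066), a nuclear kinase of SR proteins, had 293, 244 and 357 TPM. Clk4, its closest relative, had 73.6, 87.2 and 82.3 TPM, and Clk3 had 82.8, 65.8 and 63.3. Every value of Clk1 was above every value of the other kinases. Srpk1, Clk2 and Srpk2 had 45.7, 40.3 and 40.1 TPM on average, and the libraries of these 3 overlapped. Srpk1 and Srpk2 act mainly in the cytoplasm, where they load SR proteins for import.

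The annotation holds many isoforms for these genes, and most of their TPM fell outside the protein-coding ones. The 47 genes have 202 protein-coding, 138 retained-intron, 68 nonsense-mediated-decay and 64 processed transcripts. A retained-intron transcript is annotated for 38 of the 47 (80.9%), against 41.4% of all protein-coding genes, and a decay transcript for 34 (72.3%), against 20.8%. Summed over the genes, retained-intron transcripts held 51.5% ± 1.12 (SD, n = 3) of the TPM, with 50.2%, 52.2% and 52.1% in replicates 1, 2 and 3. Protein-coding transcripts held 25.3% ± 0.873, processed transcripts 14.8% ± 0.313 and decay transcripts 8.45% ± 0.617. Over all protein-coding genes the same 4 classes held 37.4%, 49.8%, 8.57% and 4.12%. The annotation difference stands beside these shares, since a gene without a transcript of a class can hold no TPM in it, and its part in the difference was not tested. Reads from introns that are still to be spliced can be assigned only to transcripts that contain the intron, so unspliced precursor and a retained intron cannot be told apart in these tables.

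**Figure D2:**
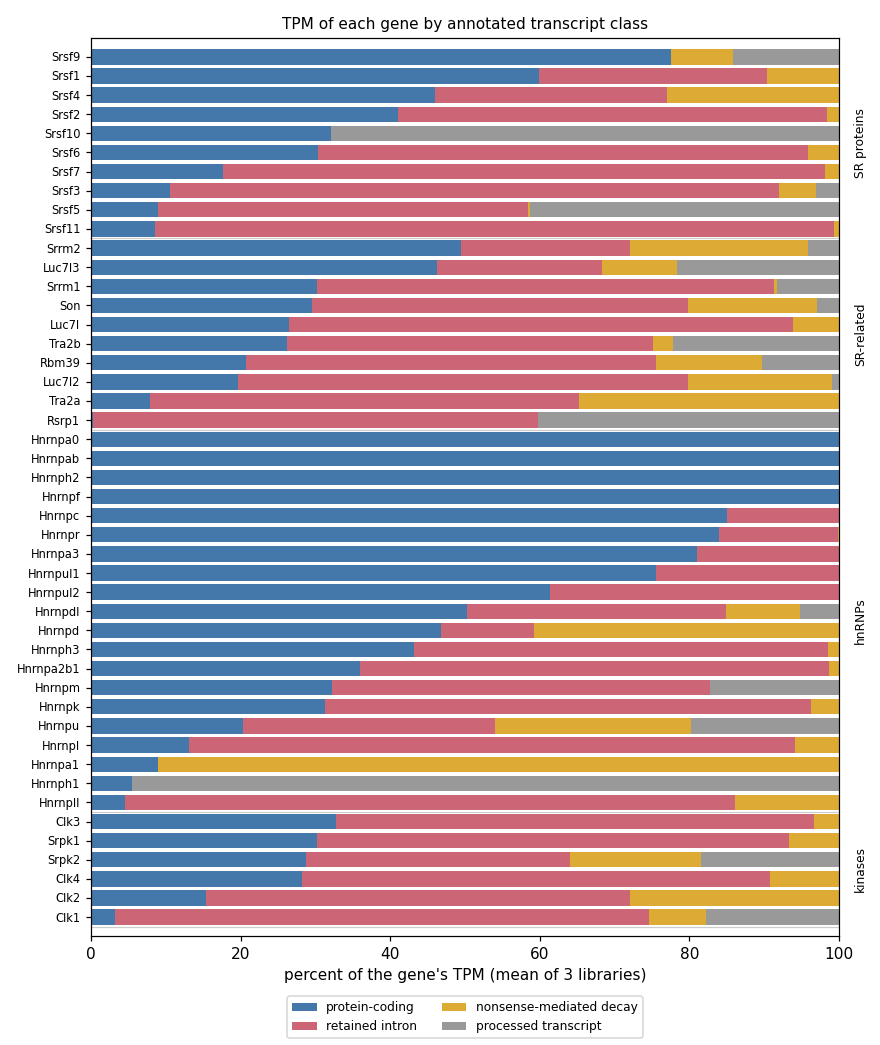
Percent of each gene's TPM (mean of 3 libraries) in protein-coding, retained-intron, nonsense-mediated-decay and processed transcripts, for the 46 detected genes by role. The protein-coding part is 100% in Hnrnpf, Hnrnph2, Hnrnpab and Hnrnpa0, and 0.253% in Rsrp1.

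The transcript with the highest mean TPM was of the retained-intron class in 23 of 46 genes, against 24.2% of the 9819 protein-coding genes with at least 1 TPM. It was protein-coding in 17 (against 67.5%), a decay transcript in 3 (2.39%), namely Hnrnpa1, Hnrnpd and Clk2, and a processed transcript in 3 (5.72%), namely Srsf10, Hnrnpm and Hnrnph1. By role, a retained-intron transcript led in 6 of 10 SR proteins, 7 of 10 SR-related genes, 6 of 20 hnRNPs and 4 of 6 kinases. The same transcript led in all 3 libraries for 34 genes, and for 20 the authors' deposited interval of the leader lay above those of all other transcripts in every library. The class of the leader was the same in the table made from the reads for 36 genes. The counts of 34, 20 and 36 were made for this set only, so no share of all genes stands beside them.

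The retained-intron share, which is how much of a gene's TPM its retained-intron transcripts took, had a median of 56.0% over the 38 genes that have such transcripts, and 53.2%, 56.9% and 57.4% in replicates 1, 2 and 3. Over the 6285 protein-coding genes with at least 1 TPM and both classes the median was 41.8%. The share was over 50% in 23 of the 38 genes, against 36.5% of all. The median was 62.9% for the 6 kinases, 61.5% for 8 SR proteins, 56.1% for the 10 SR-related genes and 36.7% for 14 hnRNPs, so the median of the hnRNPs lay below that of all genes. Among the 1218 genes with at least 3 retained-intron transcripts and 20 TPM, the median was 54.4% and 59.4% were over 50%. The 21 genes of the set among them had a median of 62.7%, and 16 were over 50%. In the table made from the reads the medians were 47.6% for the set and 42.9% for all genes, and 17 of the 38 were over 50%, against 39.6% of all genes there, a proportion near that of all genes.

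**Figure D3:**
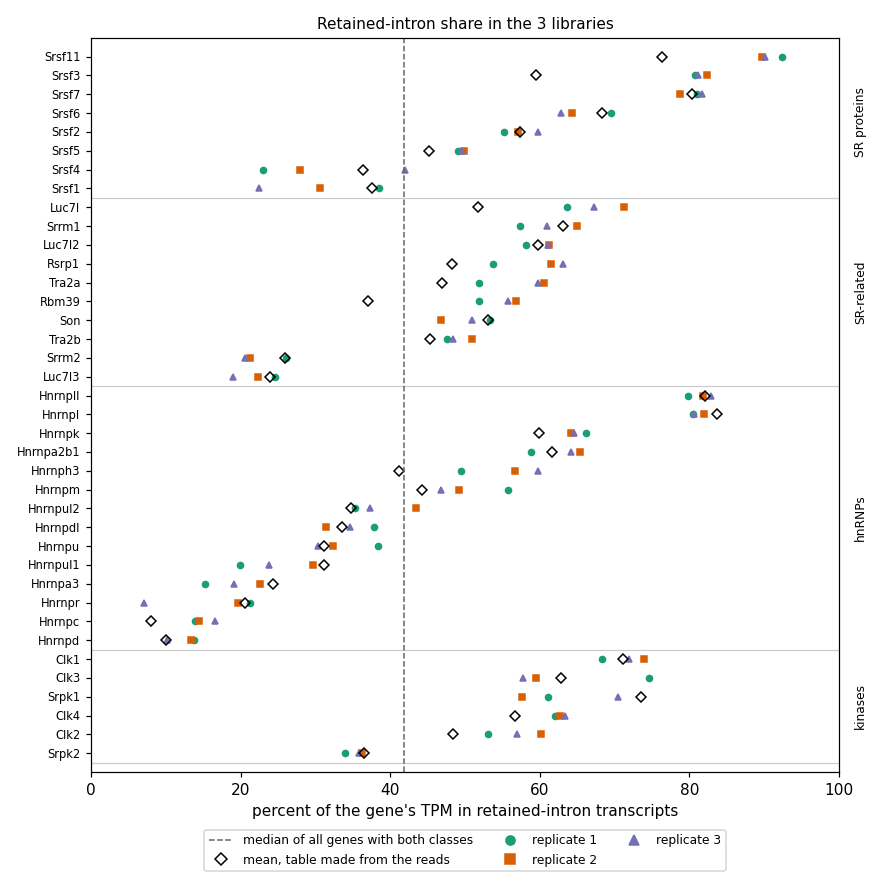
Percent of TPM in retained-intron transcripts in replicates 1, 2 and 3 (filled symbols) for the 38 genes with such transcripts, with the mean from the table made from the reads (open diamonds) and the median of all genes with both classes (dashed line, 41.8%). The diamonds of Srsf11, Srsf3 and Rbm39, among others, lie below all 3 of their filled symbols, while those of Srpk1 and Hnrnpl, among others, lie above.

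Srsf11 had the highest share, with 92.4%, 89.7% and 90.1% in replicates 1, 2 and 3. Its leading transcript, Srsf11-208, had 83.9 TPM and covers part of 1 intron of the principal coding transcript. Hnrnpll had 79.8%, 81.8% and 82.9%, Hnrnpl 80.5%, 81.9% and 80.6%, Srsf3 80.8%, 82.3% and 81.1%, and Srsf7 81.0%, 78.8% and 81.7%. None of these 5 varied by more than 5 percentage points between libraries. The table made from the reads gave 82.1% for Hnrnpll, 83.7% for Hnrnpl and 80.4% for Srsf7, but 59.4% for Srsf3 and 76.3% for Srsf11. In Srsf3 the transcript Srsf3-204 holds introns 3 and 4 whole and had 39.1 TPM, 33.0% of the gene, against 12.4 TPM for the coding transcript Srsf3-202. In Srsf7 the transcript Srsf7-207 holds intron 3 whole and had 20.4 TPM against 6.46 for the coding transcript Srsf7-201.

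The kinase Clk1 had a share of 68.4%, 73.9% and 71.9%, and Clk4 had 62.0%, 62.7% and 63.4%. Clk1-204 holds introns 3, 4 and 6 whole and had 83.0 ± 14.6 TPM (SD, n = 3), while the protein-coding transcript of Clk1 held 3.16% of its TPM. Clk4-213 holds introns 3, 4, 7 and 8 whole and had 18.1 TPM, against 13.6 for the coding transcript Clk4-202. Clk1 and Clk4 thus both had a leading transcript with introns 3 and 4 unspliced. Introns are numbered within each gene's principal coding transcript. In Srsf5 the transcript Srsf5-212, which holds intron 5 whole, had 211 TPM, and in Srsf2 the transcript Srsf2-203, which holds intron 2 whole, had 73.4 TPM or 57.3% of the gene. Rsrp1-204, with intron 3 whole, had 649 TPM, while the protein-coding class of Rsrp1 held 0.253% of its TPM.

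The lowest shares were found in hnRNPs. Hnrnpd, which binds AU-rich elements, had 13.8%, 13.4% and 10.1%, Hnrnpc, a U-tract binder that keeps cryptic exons out of mRNA, had 13.9%, 14.5% and 16.6%, and Hnrnpr had 21.2%, 19.6% and 7.03%. The values of Hnrnpr rest on 10.2 TPM and spread more than those of the other pair. A further 9 genes have no retained-intron transcript in the annotation, namely Srsf9, Srsf10, Srsf12, Hnrnpa0, Hnrnpa1, Hnrnpab, Hnrnpf, Hnrnph1 and Hnrnph2. The class names do not capture all unspliced sequence. In Hnrnph1, a binder of G-runs, processed transcripts held 91.9%, 95.7% and 96.1% of the TPM, and its leading one, Hnrnph1-204, holds introns 5 and 6 whole. Of the 138 retained-intron transcripts of the set, 45 hold at least 1 whole intron of the principal coding transcript, 90 hold part of an intron only and 3 hold neither.

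Decay transcripts held a smaller part. Their share had a median of 7.99% over 34 genes, against 5.77% over 3122 protein-coding genes with both classes, and was over 10% in 13, against 36.3% of all, a proportion near that of all genes. In the table made from the reads the median was 8.70% for the set and 9.07% for all genes. The median was 14.2% for 9 SR-related genes, 8.42% for the 6 kinases, 7.91% for 10 hnRNPs and 4.12% for 9 SR proteins.

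Hnrnpa1, a repressor of exon inclusion, had the highest decay share with 91.3%, 88.9% and 92.9%. Its transcripts Hnrnpa1-203 and Hnrnpa1-204 had 43.9 and 34.9 TPM, against 7.37 for the coding transcript Hnrnpa1-202. Both end their reading frame at the stop codon of the principal coding transcript, so this share does not mark a different protein end. Hnrnpd had 41.8%, 37.5% and 43.0%, and its leading decay transcript Hnrnpd-208 shares that feature. Tra2a, a relative of the fly protein transformer-2, had 43.6%, 26.8% and 34.1%, the widest spread of the 5 highest, with replicate 2 lowest. Clk2 had 28.7%, 28.6% and 26.5%, carried by Clk2-204 with 11.3 TPM. Hnrnpu, a nuclear scaffold protein, had 27.4%, 25.6% and 25.6%, and overlaps Cox20 on the other strand. In the table made from the reads the means were 82.7% for Hnrnpa1, 31.8% for Hnrnpd, 51.4% for Tra2a, 23.9% for Clk2 and 19.8% for Hnrnpu.

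The stop-carrying exons were then compared by how the transcripts of a gene treat them. Across 13 genes, 20 such exons of 51 to 460 bases were found. Transcripts of any class were sorted by whether they splice the exon in, skip it, or hold it in a longer exon with unspliced sequence. Skipping meant an intron that spans the exon, whether or not it joins the flanking exons of the principal coding transcript. A longer exon counted if it was first or last in its transcript or reached past an end of the surrounding intron. Transcripts with none of the 3 forms were left out, so the shares need not add up to the whole gene. A longer exon of this kind is annotated for 10 of the 20 exons, in 8 genes. For 8 of these, in Srsf3, Srsf6, Srsf7, Tra2b, Srsf11 (2 exons), Rbm39 and Srrm2, more TPM held the exon inside a longer exon than had it spliced in, in every library. For the other pair, in Srrm1 and a longer version of the Tra2b exon, the spliced-in form was at 0 in every library. In the table made from the reads the order was reversed for that exon of Rbm39, which belongs to Rbm39-225 and is not the one printed above, with 13.3% inside a longer exon and 14.7% spliced in. The counts of 10 and 8 exons were made for this set only, so no share of all genes stands beside them. They are not read as a trait of these genes. For 4 exons, in Srsf3, Srsf6, Srsf7 and Srrm1, a transcript holds the surrounding intron whole, whereas in the other genes the longer exon is the first or last of its transcript and holds part of the intron. For the exon of Srsf7 printed above, 71.0%, 61.8% and 65.0% of the gene's TPM held it within the whole intron, 17.6%, 18.8% and 16.5% skipped it, and 1.41%, 2.43% and 1.74% had it spliced in. For that of Srsf6 the means were 65.6% ± 3.52 within the whole intron, 29.9% skipped and 4.12% spliced in (SD, n = 3). For Srsf3 they were 33.0% ± 0.0759, 10.7% and, in replicates 1, 2 and 3, 4.31%, 4.68% and 6.02%. For Tra2b 55.2% ± 0.667 held the exon inside a longer one, in Tra2b-202 and Tra2b-203, 10.9% skipped it and 2.72% had it spliced in. In these 4 genes the spliced-in form was the least abundant of the 3 in each library.

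**Figure D4:**
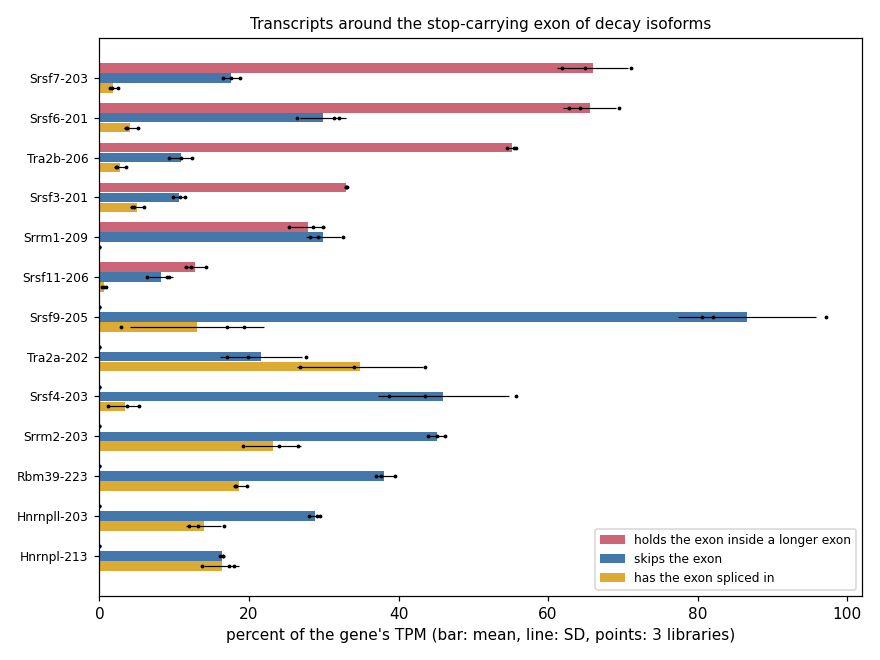
Percent of each gene's TPM in transcripts that hold a stop-carrying exon inside a longer exon, skip it, or have it spliced in, for the decay transcript with the highest TPM in each of 13 genes (bars: mean; lines: SD; points: 3 libraries). Transcripts of any class are counted, and the 3 bars of a gene need not add up to the whole gene. For Tra2a-202 the bar of the spliced-in exon (34.8%) is longer than that of skipping (21.6%), and for Srsf7-203 the bar of the longer exon (65.9%) is the longest.

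In Tra2a the spliced-in form was the largest of the measured forms on average. The exon of Tra2a was spliced in with 43.6%, 26.8% and 34.1% of the TPM in replicates 1, 2 and 3 and skipped with 17.1%, 27.7% and 19.9%, so the order of the forms was reversed in replicate 2. No annotated transcript of Tra2a holds this exon inside a longer one as defined above. In the table made from the reads the exon of Tra2a was spliced in with 51.4% and skipped with 11.8%. The exon of Hnrnpl was spliced in with 18.0%, 13.7% and 17.4%, close to the 16.2%, 16.5% and 16.5% that skipped it. This spliced-in form pools Hnrnpl-213 with Hnrnpl-207. Hnrnpl-213 is the only decay transcript of Hnrnpl, and the decay share of the gene was 5.89% on average. The exon of Hnrnpll was spliced in with 13.9% and skipped with 28.8% on average, and that of Rbm39 with 18.7% and 38.1%. No transcript is annotated that holds these 3 exons inside a longer one as defined above, so that form could not be measured. Srrm2-203 had its exon spliced in with 23.3% ± 3.74 (SD, n = 3) of the TPM, against 45.1% for skipping.

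Counts of most of the genes spread between libraries by more than Poisson sampling gives, though by small amounts. Counts were compared with Poisson sampling by a chi-square test per gene (edgeR TMM library sizes, Benjamini-Hochberg adjustment over 10952 protein-coding genes, threshold 0.05). The spread exceeded counting noise in 41 of 46 genes, against 58.0% of all genes tested. The test finds smaller differences in genes with more counts, and these genes are abundant. It also takes reads as independent molecules, which reads without molecular identifiers are not, so a pass shows spread beyond Poisson counting and does not tell biological from technical spread. The size of the spread was below that of all genes, with a median SD of log2 CPM of 0.14 against 0.24, and an edgeR biological coefficient of variation of 0.170 against 0.196. This comparison was not matched for abundance. The SD includes counting noise, which is larger in genes with fewer counts, so the lower spread is not read as a trait of these genes. Srsf10, Luc7l3, Hnrnpdl, Hnrnpab and Hnrnpa0 did not pass the test. Without replicate 2, 24 of 46 genes passed, against 29.6% of all.

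**Figure D5:**
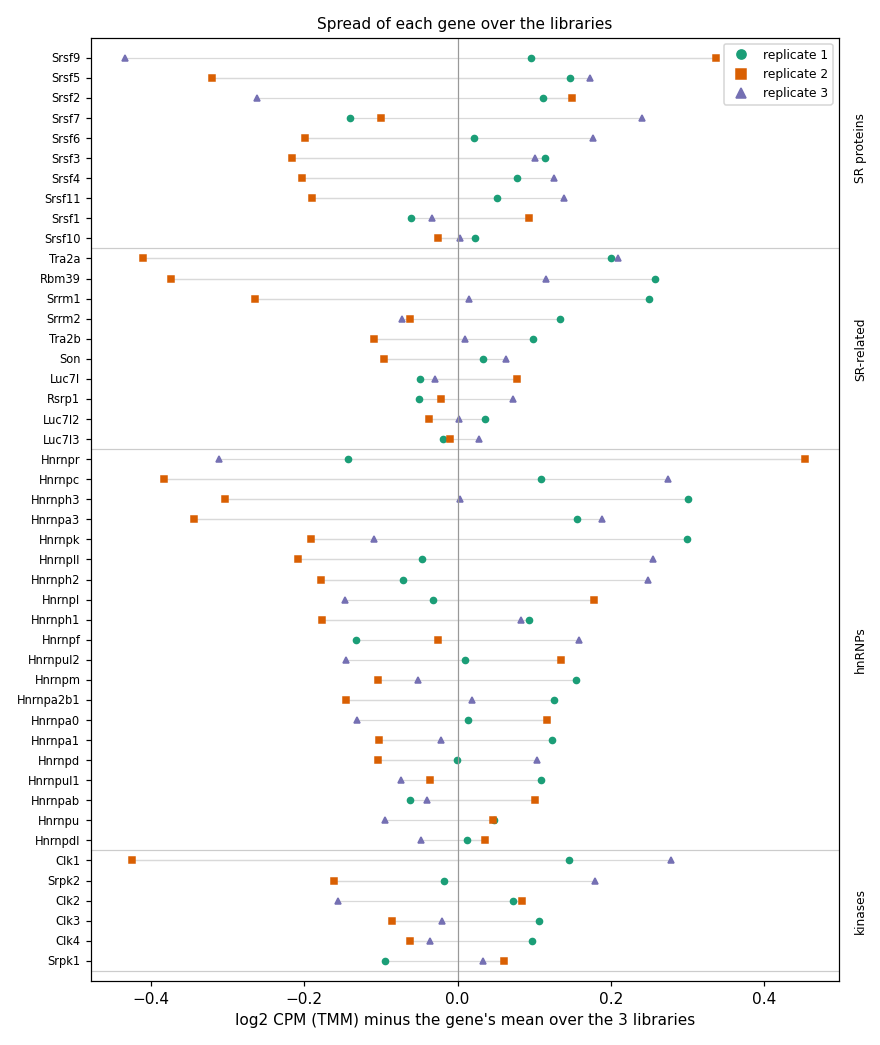
Log2 CPM (TMM scaling) of the 46 detected genes in replicates 1, 2 and 3, each minus the gene's mean over the libraries, ordered by SD within each role. Replicate 2 is the lowest library for 27 genes with this scaling (10 to 29 with others), and Hnrnpr stands highest in replicate 2.

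The largest spread among genes with at least 100 counts was that of Hnrnpr, with log2 CPM values of 4.90, 5.49 and 4.73 and an SD of 0.40. Clk1 had 8.94, 8.37 and 9.08 (SD 0.37), Tra2a 8.20, 7.60 and 8.21 (SD 0.35), Hnrnpc 7.02, 6.53 and 7.19 (SD 0.34) and Rbm39 10.28, 9.65 and 10.13 (SD 0.33). Hnrnpr was highest in replicate 2, and the other 4 were lowest there. Replicate 2, made from the least RNA, was the lowest library for 27 of 46 genes with TMM scaling, while it was lowest for 37.1% of all genes. This count depends on the scaling. It was 29 with DESeq2 size factors (against 38.5% of all genes), 15 with total counts (22.9%) and 10 with TPM rescaled over protein-coding genes (18.1%), and the last 2 scalings raised the median of all genes in replicate 2 by 0.12 and 0.19 on the log2 scale. Clk1 was lower in replicate 2 than in the mean of the others by 0.64 with TMM, 0.65 with DESeq2 size factors, 0.47 with total counts and 0.46 with rescaled TPM. Under all 4 scalings 13 genes were lower there, among them Clk1, Tra2a, Hnrnpc and Rbm39, and 13 were higher, among them Hnrnpr, Hnrnpl, Srsf1 and Srsf2. Such counts were not made over all genes, so they describe single genes and are not read as a trait of the set. The part of RNA input in these differences was not tested, and in bulk RNA fewer cells of a type and less RNA per cell cannot be told apart.

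Assignment of reads between genes limits some of these values. Expected counts were whole numbers (within 0.005) in all libraries for 24 of the 46 detected genes, and the others had fractional counts, as arise where a read matches more than 1 gene. A gene on the other strand overlaps 20 of the 47, and for 10 it is a coding gene, among them Srrm2 (Elob), Hnrnph3 (Rufy2), Hnrnpab (Phykpl), Clk4 (BC049762), Clk3 (Edc3) and Srpk2 (Kmt2e). The table made from the reads exceeded the gene tables by over 1.5 times for 2 genes, Rbm39 and Srpk1, and the median ratio was 1.01, against 1.29 for all protein-coding genes. The counts of 24, 20, 10 and 2 genes were made for this set only, so no share of all genes stands beside them.

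Other genes of the splicing and decay pathways gave a frame for these levels. Core spliceosome genes had a median of 11.8 TPM, with 34 of 37 detected and 8 in the top decile. Sf3b1, which holds the branch point in the U2 particle, had 295, 286 and 348 TPM, and the branch point binder Sf1 had 168, 202 and 173. Snrpg, Snrpf and Sf3b5 stayed under a mean of 10 counts. Other splicing regulators had a median of 58.2 TPM, with 29 of 34 detected and 25 in the top decile. The helicase Ddx5 had 787, 759 and 898 TPM and the RNA binder Ewsr1 403, 406 and 381, whereas Rbfox2, Mbnl3, Nova2, Nova1 and Esrp1 were not detected. The last 3 are known from neurons and epithelia.

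Nonsense-mediated decay factors had a median of 18.7 TPM, with 14 of 14 detected and 4 in the top decile. The kinase Smg1, which phosphorylates Upf1, had 134, 169 and 160 TPM, and its partner Smg9 had 32.7, 44.1 and 40.2. Further kinases and partners of SR proteins had a median of 23.0 TPM, with 13 of 13 detected and 4 in the top decile. Prpf4b had 124, 127 and 128 TPM and Top1, a topoisomerase that can also phosphorylate SR proteins, had 93.6, 99.8 and 112. Retained-intron shares of these lists had medians of 55.0% over 30 core spliceosome genes, 51.6% over 22 other regulators, 59.7% over 7 decay factors and 40.2% over 10 kinases and partners, against 41.8% for all genes. The share was over 50% in 18, 11, 4 and 4 of them, against 36.5% of all genes, and the last count is near that share. The spread exceeded counting noise by the same chi-square test in 20 of 34, 21 of 29, 8 of 14 and 10 of 13 detected genes, against 58.0% of all, and the counts of core spliceosome genes and decay factors are near that share.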

How the data were processed

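Total RNA of the chromatin fraction was measured in 3 libraries of 1 group. Per the deposited notes, the authors used mm10 and GENCODE M21. The authors' gene and transcript tables, made from a transcriptome alignment, hold expected counts and TPM per the file headers, in the layout of RSEM. Another deposited transcript table, in the layout of kallisto and made directly from the reads, holds estimated counts and TPM. Not given in the sources used here were the programs, their versions, strand use and the level of the deposited TPM intervals. Entries naming no gene (1.13%, 0.324% and 0.279% of counts) were left out.

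Members were found by symbol. The members, lists and tests were chosen with earlier results of these data known. Detected meant a mean of at least 10 counts, and shares needed a mean of at least 1 TPM. Counts were rounded for the chi-square test (scipy 1.17.1) with TMM sizes from edgeR 4.0.16 (R 4.3.3), and log2 CPM used a prior count of 0.5. Stop-carrying exons were read from the GENCODE M21 annotation. The principal coding transcript was chosen by the annotation's APPRIS tag, then by the longest coding sequence. The test was run on simulated Poisson counts. It called 10 of 10752 unchanged genes and 27 of 50 genes raised 1.5 times in 1 library. Such counts hold no spread beyond Poisson sampling, so the low number of false calls does not carry over to real libraries.

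Per-library values were given for the 3 highest genes of each role, genes with a mean under 10 counts, the 5 highest and 3 lowest retained-intron shares, the 5 highest decay shares, the 5 largest spreads and Srsf1, Srsf2, Srsf3, Srsf5, Srsf7, Tra2b, Clk1, Clk4, Hnrnpa2b1, Hnrnpl, Hnrnpll and Hnrnpdl. From each other list the 2 highest and all undetected genes were named. Alternatives were the table from the reads, CPM or counts in place of TPM, DESeq2 1.42.0 size factors, total counts, other minimum levels and leaving out each replicate. A count of 0 allows 3 counts, which covers counting error only, since the reads carry no molecular identifiers.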

Additional observations from a re-analysis of the deposited data

How the results depend on the processing

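The median level of 86.2 TPM became 95.5 in the table made from the reads and 287.5 with TPM rescaled over protein-coding genes. The median percentile of 96.7 became 95.9 in the table from the reads, 95.6 by CPM and 93.4 among detected genes alone, and ran from 96.5 to 96.7 when 1 replicate was left out. The median retained-intron share of 56.0% became 47.6% in the table from the reads and 49.4% as a share of counts, where all genes had 25.9%. The median decay share of 7.99% became 4.93% as a share of counts, where all genes had 2.98%. The number of genes with spread beyond counting noise, 41, ran from 24 to 32 when 1 replicate was left out (29.6% to 46.8% of all genes), with the lowest value without replicate 2, and 2 libraries carry less information than 3. It was 38 of 46 with DESeq2 size factors (57.7% of all genes), 43 with total counts (64.5%), 39 without a minimum count (42.0%) and 45 of 47 in the table from the reads (60.7%). The counts in the top decile (29 to 39), detected (46 or 47), over a retained-intron share of 50% (17 to 23) and led by a retained-intron transcript (21 to 24) stayed within 1.5 times of the reported values in every alternative. Over a share of 50% were 23 of 38 genes as reported, 17 in the table from the reads and 19 as a share of counts. All genes had 36.5%, 39.6% and 25.1%, so the set was near all genes in the table from the reads. For the genes led by a retained-intron transcript, no share of all genes was made in the alternatives. The level of 25 of 47 single genes moved by more than 1 SD in the table from the reads. No paired analysis was possible because there is 1 group. Depth limits the least abundant detected gene, Hnrnpa0 with 86.7 counts on average. The 0 counts of Srsf12 depend on the quantification, since the table made from the reads listed it at 1.41 TPM on average.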
